A study of Mus musculus with 33 samples.

Results

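The mature myelin genes are 9 genes that myelinating oligodendrocytes express late in their development: *Mbp*, *Mobp*, *Cnp*, *Mag*, *Mog*, *Opalin*, *Ermn*, *Fa2h* and *Ugt8a*. These were chosen here by symbol, with earlier results of these data known. They are 9 of the 41565 named entries of a bulk RNA-seq table of the mouse hypothalamus, and all 9 were tested. The libraries were made from the posterior hypothalamus (PH) and the preoptic area (POA) of adult wild-type C57BL/6 female mice. These mice either kept their ovaries and were collected in diestrus (intact; their titles say sham), or had both ovaries removed (ovariectomy, OVX) 14 days or 4 months earlier. The PH had 4 intact, 6 14-day and 6 4-month libraries, and the POA had 5, 6 and 6, with 2 or 3 libraries of every group in each of the 2 batches that the labels name. The intact mice were not matched in age to the 4-month group, so at 4 months age and time after OVX cannot be told apart. Neither the labels nor the methods used here say whether a library held 1 mouse or several, or whether PH and POA libraries came from the same mice, so the *P* values measure only the spread between these libraries. The question was how myelin transcripts stood at a short and a long time after loss of the ovaries.

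Myelin is the lipid-rich membrane that oligodendrocytes wrap around axons in the central nervous system. Its compact layers are held together by *Mbp* and *Mobp*. *Cnp* and *Ermn* act at the cytoplasmic side of the sheath, *Mag* faces the axon, and *Mog* lies on the outermost surface. *Fa2h* and *Ugt8a* make its galactolipids. Oligodendrocytes arise from precursor cells throughout adult life, and the transcription factors MYRF and SOX10 are known to drive myelin genes as the cells mature.

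The promoters of the 4 members that hold a MYRF motif are shown, so that the position of the motif can be compared between them. The windows are from RefSeq (build GRCm38.p6), run from 250 bases before to 50 bases after the annotated start, and are written 5′ to 3′ on the strand of the gene. Capitals mark the motif, CTGGCAC or CTGGTAC on either strand. *Mag* has more than 1 annotated start, and the window shown is the one at chr7:30914814-30915113 (minus strand). The others are at chr11:100574689-100574988 (*Cnp*, plus strand), chr17:37023349-37023648 (*Mog*, minus strand) and chr19:41077064-41077363 (*Opalin*, minus strand).
Mag: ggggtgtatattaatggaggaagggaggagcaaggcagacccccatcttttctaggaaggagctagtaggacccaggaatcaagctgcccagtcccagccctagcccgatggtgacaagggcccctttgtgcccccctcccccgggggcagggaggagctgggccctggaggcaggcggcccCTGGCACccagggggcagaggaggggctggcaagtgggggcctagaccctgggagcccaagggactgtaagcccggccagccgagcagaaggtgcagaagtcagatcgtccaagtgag
Cnp: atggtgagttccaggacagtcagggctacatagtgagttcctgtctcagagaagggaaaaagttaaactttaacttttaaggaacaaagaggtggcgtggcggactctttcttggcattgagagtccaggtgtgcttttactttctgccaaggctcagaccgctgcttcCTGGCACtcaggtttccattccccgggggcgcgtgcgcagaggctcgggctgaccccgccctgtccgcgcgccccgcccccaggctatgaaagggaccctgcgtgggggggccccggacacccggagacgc
Mog: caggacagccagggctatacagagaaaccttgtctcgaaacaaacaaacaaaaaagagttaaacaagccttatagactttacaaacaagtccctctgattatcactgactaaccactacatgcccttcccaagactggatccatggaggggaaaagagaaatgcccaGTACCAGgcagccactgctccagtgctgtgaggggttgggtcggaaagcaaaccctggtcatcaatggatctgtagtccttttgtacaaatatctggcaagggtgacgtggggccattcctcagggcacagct
Opalin: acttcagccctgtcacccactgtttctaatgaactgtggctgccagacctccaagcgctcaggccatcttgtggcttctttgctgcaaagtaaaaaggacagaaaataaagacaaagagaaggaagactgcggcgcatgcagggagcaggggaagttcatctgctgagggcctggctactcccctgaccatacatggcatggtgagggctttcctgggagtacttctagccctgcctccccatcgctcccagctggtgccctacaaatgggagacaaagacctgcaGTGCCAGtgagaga
The motif began 68 bases before the start of *Mag* and 81 bases before that of *Cnp*, and in *Mog* it lay on the opposite strand 83 bases before the start. In *Opalin* it lay on the opposite strand, 36 bases after the start. Of the 7 members with an entry, these 4 held it, compared with 7.1% of all 32851 promoter windows of the same length. The SOX motif ACAAAG, searched on both strands, was in *Cnp*, *Mag*, *Mobp* and *Opalin*, compared with 18.7% of windows, and both motifs were in 3 of the 7 members, compared with 1.44%. The motifs share no overlapping letters in these windows, and genes with several starts count once per window in the percentages. *Ermn* and *Ugt8a* had neither. These are matches of letters, and no binding was measured. *Fa2h* and *Mbp* had no promoter entry.

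All members were abundant. Their deposited values, a normalized expression signal on a linear scale, ranged from 838.4 (*Opalin*) to 160690 (*Mbp*) over all 33 libraries. The lowest was 37.3 times the floor at which unexpressed genes lie, so no member depended on the filter on low values. Divided by the length of the canonical transcript, the mean intact level in the PH was 54200 per kilobase for *Mbp*, 34100 for *Mobp*, 7040 for *Cnp*, 3620 for *Mag* and 1770 for *Mog*. *Ermn* followed at 1430, *Ugt8a* at 1100, *Fa2h* at 757 and *Opalin* at 536. The order was the same in the POA, from 57900 per kilobase for *Mbp* to 532 for *Opalin*. The intact PH libraries of neighbors in this order did not overlap except for *Mog* (1700 to 1940 per kilobase) and *Ermn* (1190 to 1770). In the POA, *Ermn* and *Ugt8a* overlapped, and so did *Ugt8a* and *Fa2h*. It is not known whether the deposited values scale with transcript length, and the order depends on this division. Undivided, the mean intact PH values of *Ermn* (5893) and *Ugt8a* (4144) were above that of *Mog* (3326). Levels were not compared between the regions, since how the deposited values were derived is not given in the sources used here.

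The 6 markers of Schwann cells, which make peripheral myelin, summed to 368.1 to 721 over all libraries, where the floor of a single gene is 22.5, and 4 of them passed the filter on low values. *Egr2*, a transcription factor, lay between 50.6 and 213, *Ncmap*, a myelin protein, between 59.2 and 145, and *Prx*, a scaffold protein, between 54.6 and 101. *Pmp2*, a lipid-binding protein, was at 20.4 to 36.8. None of the 4 tested was called.

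A PH library, replicate 5 of the 14-day group, stood apart. The sum of its values was 1.45 times the median sum of the other 15 PH libraries, which lay between 0.944 and 1.09 times that median. Its *Mag* value was 2952, compared with 6085 to 7411 in the other 5 libraries of its group, and its *Cnp* value was 7658, compared with 13830 to 16550. In the same library *Ermn* was at 10650 (others 4767 to 7064), *Mobp* at 71330 (46160 to 53600), *Mbp* at 147100 (89280 to 141100) and *Ugt8a* at 4976 (3122 to 4555). *Mog*, at 2312, lay below the others, whereas *Opalin* and *Fa2h* lay within their range. So the myelin genes of this library were not low or high as a group, but split. Their differences from the mean of the other 5 ran from -1.2 (*Mag*) to 0.85 (*Ermn*) on the log2 scale. Without it, 0 of 9 members were called in any of the comparisons that include the PH.

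To compare the groups, limma was fitted to the log2 values of a region with its first surrogate variable (SV1), a pattern of variation between libraries that was estimated from all genes with the 3 groups protected. Differences are on the log2 scale. The threshold for a call was 0.05 on the adjusted limma *P*, with the Benjamini-Hochberg correction taken over all genes tested. In bulk tissue, fewer oligodendrocytes and less RNA per oligodendrocyte cannot be told apart.

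No member was called in any comparison. At 14 days in the PH 0 of 9 were called (0% of 21808 genes tested were called), and at 4 months 0 of 9 (0.0321%). In the POA 0 of 9 were called at 14 days (0.00473% of 21149 genes) and 0 of 9 at 4 months (0.0946%). Between 4 months and 14 days, 0 of 9 were called in the PH (0.00917% of genes), and for the POA the count was also 0 of 9 (0.0284%). At an unadjusted limma *P* under 0.05 without correction, 1 of 9 was lower at 14 days in the PH (1.47% of all genes) and 1 at 4 months (3.12%), where none was higher (2.97%). In the POA 3 were lower at 14 days (3.33%), and at 4 months 2 were lower (4.42%) and 1 higher (4.07%). None was higher at 14 days in either region (1.56% of all genes in the PH, 2.82% in the POA). The members vary together and share their control libraries, so they do not count as 9 separate observations.

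The estimates leaned below 0 at 14 days, though most members were not below intact in both batches. In the PH, 9 of 9 estimates at 14 days were below 0, with a median of -0.128, while 50.6% of all genes were below 0, with a median of -0.00177. Without replicate 5 of the 14-day group 9 of 9 were also below 0, with a median of -0.126. In the PH fit, SV1 was 0.785 for this library and -0.311 to 0.195 for the other PH libraries. The main fit was thus already adjusted for much of what set replicate 5 apart. With batch in place of SV1, or with no covariate, *Ermn* was above 0 at 14 days in the PH, at 0.16. In the POA 8 of 9 estimates with SV1 were below 0, with a median of -0.129 (all genes 52.3% and -0.00613). At 4 months 6 of 9 were below 0 in each region, with medians of -0.128 in the PH (all genes 52.9% and -0.00942) and -0.0881 in the POA (all genes 53.6% and -0.0109). Without replicate 5 of the 14-day group, which shares the PH fit, 7 of 9 were below 0 at 4 months (median -0.129), since *Mbp* went from 0.034 to -0.021. The 95% interval of a member reached 0.145 to 0.365 to either side of its estimate at 14 days in the PH, and 0.162 to 0.257 in the POA.

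**Figure D1:**
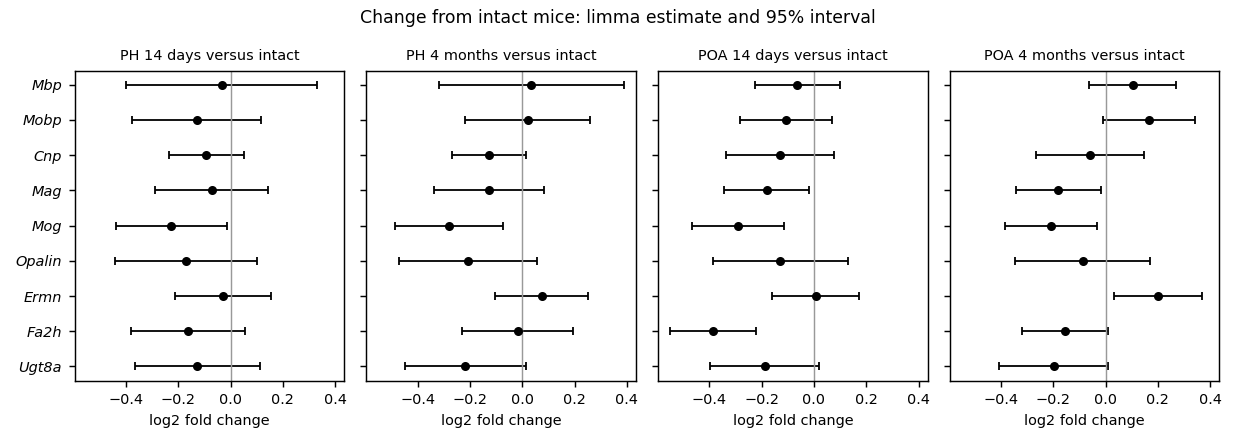
The log2 fold change from intact mice (x axis) is plotted for the 9 members (y axis) in each region and time, as the limma estimate (point) with its 95% interval (bar). Most intervals cross 0, and *Mog* lies left of 0 in every panel, whereas *Fa2h* at 14 days in the POA is the farthest from 0, at -0.39.

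*Mog* encodes an adhesion protein on the outermost surface of the sheath and is known as a target of antibodies against myelin. It lies on chromosome 17 (GRCm39, 17:37321521-37334350, minus strand). In the PH its value was 3252, 3635, 3195 and 3224 in the intact libraries, and 2312 at the lowest, 2773 at the median and 3056 at the highest of the 14-day libraries. All 6 14-day libraries were thus below every intact one, as was so for 0.289% of all genes. The estimate was -0.23 (SE 0.10, adjusted *P* = 1.0 by limma), and the same without replicate 5 (-0.23). At 4 months *Mog* ranged from 2323 through a median of 2595 to 3657. Here 5 of 6 libraries were below every intact one and the other was above them all. The estimate was -0.28 (SE 0.098, adjusted *P* = 0.636), also without replicate 5 of the 14-day group (-0.28).

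In the POA, the intact libraries held *Mog* at 3364, 2814, 3348, 3336 and 4116. The 14-day libraries ranged from 2455 through 2707 to 3160, and 3 of the 6 were below every intact one. The difference was -0.29 (SE 0.084, adjusted *P* = 0.733). At 4 months the values were 2665, 2880 and 3238 at the lowest, median and highest, and the difference was -0.21 (SE 0.085, adjusted *P* = 0.489). Within batches, the PH differences at 14 days were -0.33 and -0.23 and the POA differences -0.086 and -0.45. At 4 months the PH differences were -0.33 and -0.20, and those of the POA -0.11 and -0.27, so that *Mog* was lower than in intact mice in both batches each time. The 14-day and 4-month comparisons of a region share their intact libraries, and *Mog* did not pass the correction in any of them.

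*Fa2h* encodes the enzyme that hydroxylates the fatty acids of myelin galactolipids, and lies at 8:112071767-112120465 (GRCm39, minus strand). In the intact POA its value was 1826, 1857, 2202, 2326 and 2595. In the 14-day POA libraries it was 1309 at the lowest, 1675 at the median and 1797 at the highest, below every intact library in 6 of 6 (0.147% of all genes). The difference was -0.39 (SE 0.078, 95% interval -0.55 to -0.22), a fold of 0.765. It ranked 5th of 21149 genes by limma *P* (8.25e-05), with an adjusted *P* of 0.349. Within batches it was -0.31 and -0.48. Without replicate 1 of the 14-day POA group, whose value of 1797 was the highest of that group, *Fa2h* was called (difference -0.44, adjusted *P* = 0.0499). Over all 25 other settings (8 alternatives, and each of 17 libraries left out in turn) its adjusted *P* ranged from 0.0499 to 1.0.

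At 4 months the POA libraries held *Fa2h* at 1515, 1900 and 2092 (lowest, median and highest), and 6 of 6 were below the intact libraries of their own batch (1.33% of all genes). The difference was -0.16 (SE 0.078, adjusted *P* = 0.612). The 4-month libraries were above the 14-day ones by 0.23 (SE 0.074, adjusted *P* = 0.730). In the PH the intact values were 1724, 1930, 2081 and 1809, and the 14-day values ran from 1588 through 1637 to 1745, in a narrow range that overlapped with the lowest intact library. The PH difference was -0.16 at 14 days (95% interval -0.38 to 0.055) and -0.017 at 4 months, and without replicate 5 of the 14-day group it was -0.17 and -0.023. The difference between the regions at 14 days, tested as an interaction, was 0.28 (95% interval -0.0043 to 0.56, adjusted *P* = 1.0), and 0.24 without that replicate. Thus the *Fa2h* difference in the POA was not shown to differ from that in the PH.

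*Ugt8a* encodes the galactosyltransferase that makes galactosylceramide, the lipid that *Fa2h* supplies with hydroxylated chains. In the PH its intact values were 4307, 4345, 4047 and 3874. The 4-month values were 2480, 3632 and 4119 (lowest, median and highest), and all 6 were below the intact libraries of their own batch, as was so for 1.2% of all genes. The estimate was -0.22 (95% interval -0.45 to 0.014, adjusted *P* = 0.831), and -0.21 without replicate 5 of the 14-day group. In the POA its estimates were -0.19 at 14 days and -0.20 at 4 months, neither of which passed an unadjusted *P* under 0.05. Of the other genes of the galactosylceramide and sulfatide pathway, 0 of 11 were called in any comparison (limma). In the POA at 14 days 9 of 11 estimates were below 0, with a median of -0.0501. Among them only *Cers2* (-0.11) had an unadjusted limma *P* under 0.05.

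**Figure D2:**
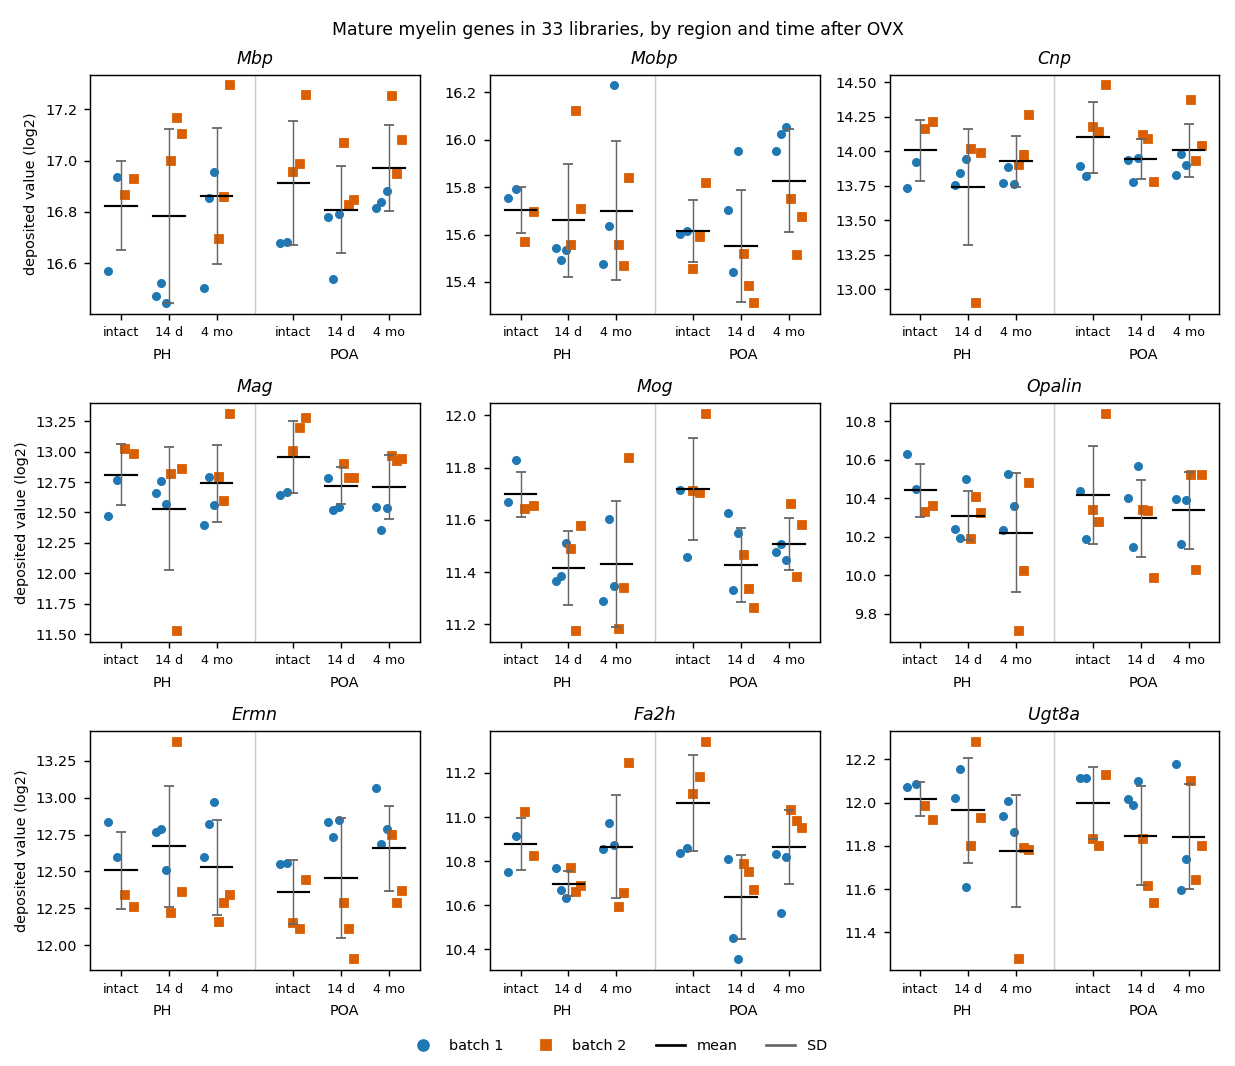
The log2 deposited value (y axis) of each member in every library is plotted by region and time after OVX (x axis), with the batch by color and shape, the mean of each group as a line and its SD as a bar. The 6 *Mog* libraries of the 14-day PH lie below the intact ones, and the 6 *Fa2h* libraries of the 14-day POA do too. In the POA *Ermn* is higher on average in batch 1, and *Mag* and *Mbp* in batch 2, although the batches overlap in some groups.

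*Mag*, the adhesion protein of the innermost, axon-facing membrane, was at 6402, 6497, 8226, 9372 and 9940 in the intact POA. The first 2 of these libraries are of batch 1 and the other 3 of batch 2. At 4 months *Mag* ranged from 5243 through 6870 to 7987, and 6 of 6 libraries were below the intact ones of their own batch (1.33% of all genes), whereas over both batches the groups overlapped. The estimate was -0.18 (SE 0.078, adjusted *P* = 0.521). At 14 days it was also -0.18 (adjusted *P* = 0.798). In the PH, *Mag* at 14 days differed from intact by -0.072 with replicate 5 and by -0.055 without it, both from the fit with SV1. Without a covariate, and with replicate 5 included, the difference of the PH means was -0.28.

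*Cnp*, an enzyme of the cytoplasmic channels of the sheath, had PH estimates of -0.093 at 14 days and -0.13 at 4 months (-0.078 and -0.13 without replicate 5 of the 14-day group), with no unadjusted limma *P* under 0.05 in either region. For *Opalin*, a transmembrane protein of oligodendrocytes, the 4 estimates against intact ran from -0.21 to -0.088, and those of the PH were -0.16 at 14 days and -0.19 at 4 months without that replicate. Its 14-day PH libraries ranged from 1168 through 1246 to 1449, and overlapped with the intact range of 1285 to 1583.

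*Mbp*, *Mobp* and *Ermn* had estimates above 0 in the POA at 4 months, where those of the other 6 members were below 0. *Mobp*, a protein of compact myelin, was at 49700, 50165, 44899, 49340 and 57811 in the intact POA, at 40690, 45700 and 63400 (lowest, median and highest) at 14 days, and at 46780, 59230 and 68100 at 4 months. Its 4-month libraries were above the 14-day ones by 0.27 (SE 0.079, adjusted *P* = 0.707), and the groups overlapped. *Ermn*, an actin-binding protein of late oligodendrocytes, was at 5996, 6028, 4540, 4411 and 5566 in the intact POA, and from 5005 through 6742 to 8583 at 4 months. The difference from intact was 0.20 (SE 0.080, adjusted *P* = 0.484), and 4 of 6 libraries were above every intact one. *Mbp*, which binds the cytoplasmic faces of the membrane together, was above the 14-day level at 4 months by 0.17 (SE 0.074, adjusted *P* = 0.962).

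Together with *Fa2h*, 4 of 9 members thus had an unadjusted *P* under 0.05 as higher at 4 months than at 14 days in the POA (2.47% of all genes), and none as lower (2.63%). The median of the 9 estimates was 0.0811, compared with -0.0023 over all genes. In this comparison 7 of 9 estimates were above 0, while 51.1% of all genes were below 0. In the PH, 0 of 9 members had an unadjusted limma *P* under 0.05 in either direction (2.01% of all genes were lower and 2.08% higher). The low end of the contrast is the 14-day POA group, which also enters the comparison with intact mice.

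The differences from intact were compared between the regions in a fit that took all 33 libraries as separate, although libraries of the PH and the POA may share mice. At 14 days 0 of 9 members differed between the PH and the POA (0.00456% of 21932 genes were called), and at 4 months 0 of 9 (0.00912%). None had an unadjusted limma *P* under 0.05 either, for which the shares of all genes were 1.6% lower and 1.37% higher at 14 days, and 1.92% and 1.7% at 4 months. The 95% interval of a member reached 0.253 to 0.389 to either side of its estimate at 14 days and 0.254 to 0.39 at 4 months.

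The levels of several members followed the batch, in opposite directions for members of different base composition. In the POA, *Ermn*, with a GC content of 37.1% in its transcript, was higher in batch 1 than in batch 2 by 0.469, and *Ugt8a* (40.4%) by 0.187. *Mag* (57.8%) differed by -0.390, *Mbp* (55.1%) by -0.283, *Fa2h* (55.2%) by -0.269 and *Cnp* (55.8%) by -0.241. *Mog* (49.5%) and *Opalin* (46.6%) lay near 0 on average over the groups, at -0.0454 and -0.0209, but the sign changed between groups. *Mog* was at -0.219 in intact, 0.147 in 14-day and -0.0638 in 4-month libraries, and *Opalin* at -0.174, 0.152 and -0.0411. *Mobp* (52.6%), at 0.215, went the other way from the genes within 2 percentage points of its GC content, whose median was -0.0942. The same quantity over 20581 genes had a Pearson correlation with transcript GC content of -0.624 in the POA, and of -0.445 over 21210 genes in the PH (-0.530 without replicate 5 of the 14-day group). These are correlations across genes, which are not independent replicates.

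**Figure D3:**
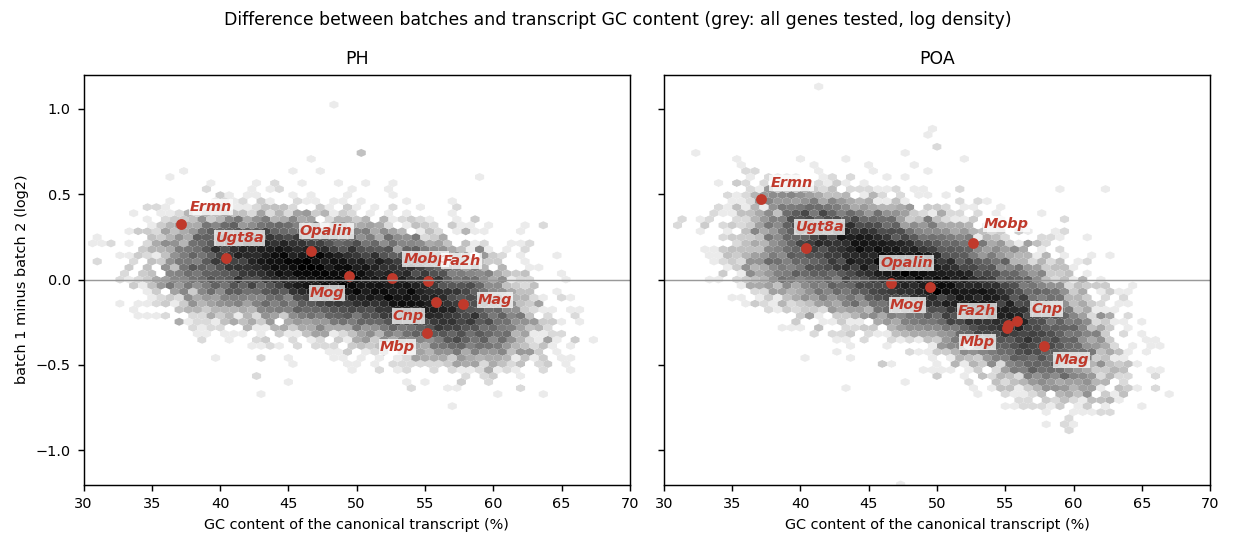
The mean difference between batch 1 and batch 2 within groups (y axis, log2) is plotted against the GC content of the canonical transcript (x axis, %) for all genes tested that lie within the axes (gray, on a log density scale) and for the 9 members (red), in the PH and the POA. The gray cloud slopes downward, *Ermn* lies at its upper left and *Mag* at its lower right, and *Mobp* lies above it in the POA.

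In the PH, *Ermn* was likewise higher in batch 1, by 0.328, *Opalin* by 0.168 and *Ugt8a* by 0.125. *Mbp* differed by -0.311, *Mag* by -0.144 and *Cnp* by -0.129. *Mog* (0.0221), *Mobp* (0.0102) and *Fa2h* (-0.0113) lay near 0 on average over the groups. For *Mobp* this average held 0.142 in intact, -0.272 in 14-day and 0.161 in 4-month libraries. Within the 14-day group, which holds replicate 5, the sign was also opposite for *Mag* (0.263), *Cnp* (0.213) and *Ugt8a* (-0.0746). Replicate 5 of the 14-day group belongs to batch 2 by its label. The deviation of this library from its group had a correlation of -0.429 with GC content across genes, whereas in the other 7 batch 2 libraries of the PH this was 0.153 to 0.438, and in 7 of the 8 batch 1 libraries it was below 0. The part of base composition in the differences between the OVX and intact groups was not tested beyond the fits with SV1, with batch, and with the slope on GC content as covariates, none of which called a member.

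Within a group, the members varied together in the POA once the batch was taken out. Of the 36 pairs of members, 36 had a positive Pearson correlation over the 17 POA libraries when values were centered on the mean of group and batch, from 0.146 to 0.952 with a median of 0.602. Centered on the group alone, 26 of 36 were positive and the range was -0.530 to 0.924. The closest pairs were *Ugt8a* and *Ermn* (0.952), which have the lowest GC content of the members, and *Mag* and *Fa2h* (0.909). *Mog* and *Opalin* correlated at 0.847 and *Mbp* and *Mobp* at 0.878. In the PH, centered on group and batch, 28 of 36 pairs were positive over 16 libraries, and *Cnp* and *Ermn* were at -0.862. Without replicate 5 of the 14-day group 34 of 36 were positive, with a median of 0.496, and *Cnp* and *Ermn* were at -0.126. These correlations are a description, since the genes share their libraries, and with them normalization, depth and base composition.

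**Figure D4:**
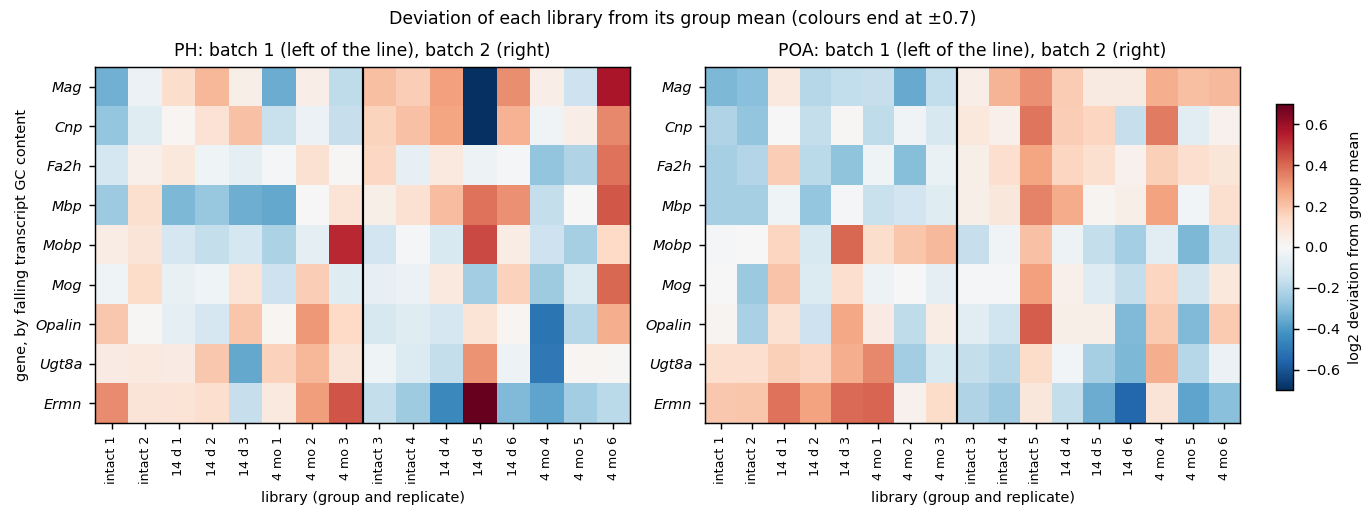
The deviation of each library from the mean of its group (color, log2, ending at 0.7 in either direction) is shown for the 9 members (rows, from high to low transcript GC content) and each library (columns), with batch 1 left and batch 2 right of the line. In replicate 5 of the 14-day PH group *Mag* and *Cnp* are deep blue and *Ermn* deep red, and in replicate 5 of the intact POA group 9 of 9 members are above the group mean.

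Some libraries stood high or low for nearly all members. In replicate 5 of the intact POA group 9 of 9 members were above the group mean, by 0.272 on average (log2), and in replicate 4 of the 4-month POA group 8 of 9 were, by 0.186. In the PH, replicate 6 of the 4-month group had 8 of 9 members above its mean (0.260 on average), and replicate 4 of that group had 8 of 9 below (-0.244). The latter library had the lowest *Ugt8a* and the lowest *Opalin* value of all, at 2480 and 838.4. The spread of *Mog* at 4 months in the PH, from 2323 to 3657, had these same 2 libraries at its ends.

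The genes whose deviations from the group mean were most like the mean of the 9 members were ranked among 15785 protein-coding genes by the lower of their correlations in the PH (16 libraries) and the POA (17 libraries). Of the first 10, 9 are given here: *Septin4* (0.868 in the PH and 0.868 in the POA), *Gpr37* (0.768 and 0.877), *Plekhh1* (0.736 and 0.818), *Tmem125* (0.705 and 0.719), *Desi1* (0.695 and 0.791), *Car2* (0.855 and 0.694), *Plaat3* (0.689 and 0.729), *Slc44a1* (0.672 and 0.658) and *Sgk2* (0.651 and 0.759). *Car2* is a carbonic anhydrase and *Gpr37* a receptor of mature oligodendrocytes. Of 39 ranked genes in a list of other myelin and mature oligodendrocyte genes, 17 were among the first 100, and the median of the lower correlation was 0.348, compared with -0.148 over all genes ranked. When values were centered on group and batch *Prr18* came first (0.866 and 0.947), followed by *Septin4* and *Gpr37*, while *Plaat3* moved from 8th to 18th.

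Among 40 other myelin and mature oligodendrocyte genes, 0 were called in any comparison (limma). In the POA at 14 days 31 of 40 estimates were below 0 (52.3% of all genes), with a median of -0.0314, and 5 were lower (3.33% of all genes) and none higher at an unadjusted *P* under 0.05. In the PH at 14 days 23 of 40 were below 0, and 3 were lower at an unadjusted *P* under 0.05 (1.47%). At 4 months 19 of 40 were below 0 in the PH (52.9% of all genes), with a median of 0.0084. In the POA 20 of 40 were below 0 (53.6%), with a median of 0.0004. At an unadjusted limma *P* under 0.05, 5 were higher (2.97%) and 3 lower (3.12%) in the PH, and 6 higher (4.07%) and 2 lower (4.42%) in the POA. *Tspan2*, a tetraspanin of oligodendrocytes, differed from intact by -0.19 (PH) and -0.22 (POA) at 14 days, and by -0.30 and -0.27 at 4 months (adjusted *P* = 1.0, 0.797, 0.321 and 0.299). At 4 months in the POA *Hapln2*, a link protein at nodes of Ranvier, had an estimate of 0.37 (adjusted *P* = 0.132), and *Apod*, a lipid carrier, of 0.53 (adjusted *P* = 0.146). Between 4 months and 14 days in the POA 31 of 40 estimates were above 0, and 8 were higher (2.47% of all genes) and none lower at an unadjusted *P* under 0.05. For the same contrast in the PH 30 of 40 were above 0, and 3 were higher (2.08%) and none lower.

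Of 12 oligodendrocyte transcription factors none was called. At 4 months in the PH 4 of 12 were higher at an unadjusted *P* under 0.05 (2.97% of all genes), among them *Myrf* by 0.40 (adjusted *P* = 0.635) and *Nkx2-2* by 0.35 (adjusted *P* = 0.339), whereas 6 of the 9 myelin genes had estimates below 0 there. In the POA 1 of 12 was higher at 4 months (4.07%), and at 14 days none was higher and 1 lower (3.33%), while in the 14-day PH 2 were higher (1.56%). Of 13 tested genes of oligodendrocyte precursors and newly formed oligodendrocytes none was called. In the POA at 4 months 11 of 13 were below 0 and 4 had an unadjusted *P* under 0.05 as lower (4.42% of all genes). The strongest was *Gpr17*, a receptor of newly formed oligodendrocytes, at -0.41 (SE 0.085, adjusted *P* = 0.0728), and its PH estimate at 4 months was -0.28. Of 11 genes of the axon and the node of Ranvier, which the sheath contacts, 0 were called. At 4 months in the POA *Cntn1* (-0.12) and *Nfasc* (-0.16) were lower at an unadjusted *P* under 0.05 (4.42% of all genes), and 8 of 11 estimates were below 0. In the PH at 4 months *Cntn1* was at -0.013 and *Nfasc* at 0.15, and 7 of 11 estimates were above 0.

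Markers of other cells and of neighboring structures were read beside these results. The 5 striatal markers summed to 5256 to 9151 in the intact PH and to 3773 to 5204 in the 14-day PH, without overlap. In the POA they summed to 4557 to 7422 in intact and 3833 to 5594 in 14-day libraries. At 4 months the sums were 3318 to 6072 in the PH and 4117 to 8055 in the POA. No striatal marker was at the floor. None of the 5 was called (limma). The part of the dissection in the lower *Mog* and *Fa2h* values of the 14-day groups was not tested.

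Sums of 5 thalamic markers ranged from 30490 to 40840 in the intact and from 25470 to 39130 in the 14-day PH. In the POA these sums were 21160 to 38580 in the intact and 24250 to 42790 in the 14-day libraries. There 4 of the 5 estimates at 14 days were above 0 (median 0.178), with *Tnnt1* at 1.13 (adjusted *P* = 0.797 by limma). *Prkcd* went the other way, at -0.54. Sums of 8 neuronal markers in the POA ranged from 208900 to 237800 in the intact and from 168200 to 251600 in the 14-day libraries. Among 8 microglial markers 8 estimates were above 0 in each of the 4 comparisons with intact mice, with medians of 0.11 (14 days) and 0.202 (4 months) for the PH, and 0.142 and 0.149 for the POA. *C1qa*, a complement subunit, was called as higher at 4 months in the POA (0.43, adjusted *P* = 0.0427 by limma). The 8 microglial markers together summed to 13250 to 14380 in the intact and 14080 to 16970 in the 4-month POA libraries, with overlap. Of 7 endothelial markers, 4 were higher at 4 months in the PH at an unadjusted *P* under 0.05 (2.97% of all genes), with a median of 0.277 over the 7, and their sums were 8036 to 8791 in the intact and 9413 to 12740 in the 4-month libraries, without overlap. None of the endothelial or the 8 astrocyte markers was called. These sums are of deposited values in single libraries, and their part in the myelin estimates was likewise not tested.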

How the data were processed

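The authors dissected flash-frozen PH and POA, made stranded mRNA libraries and, per the labels and the methods, used kallisto, DESeq2 and the mm39 genome. The deposited table holds a normalized expression signal on a linear scale. Its values are decimal, they are not counts, and how the authors derived them is not given in the sources used here. Depth is therefore unknown, and no counting interval is given.

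Entries with no gene symbol (1259) were dropped, and 109 named entries share a name. Values were log2 transformed without a pseudocount. The test took in genes with at least 4 PH or 5 POA libraries at 2 times the floor (22.5, the level of unexpressed genes) or more. limma (version 3.58.1, with statmod 1.5.0 in R 4.3.3; trend and robust variances) was fitted to the 3 groups of a region with SV1, estimated by the iteratively reweighted method in 5 rounds, written in base R. A fit of all 33 libraries gave the interaction with region. The fits were tested on simulated data. *P* values were adjusted over all genes tested. Transcript lengths, GC content and GRCm39 positions came from GENCODE. Python 3.11.15 with pandas 2.3.3, numpy 2.4.6, scipy 1.17.1 and matplotlib 3.10.9 was used.

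The members, the gene lists and the alternatives were chosen with earlier results of these data known. The 9 members are always named. From a list, called genes are named, and otherwise up to 4 genes with the smallest unadjusted *P* against intact. Of the 10 genes most like the members 9 are named. The other, and some genes of the lists, are not reported here. *Prr18* and the Schwann cell markers were named after their values were seen. For 1 POA library labelled only 14, the time was taken from its title. The alternatives are given in the closing section.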

Additional observations from a re-analysis of the deposited data

Results flagged for a closer look

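In 54 groups of 4 to 6 libraries, 5 had a highest or lowest library whose gap to its nearest neighbor exceeded Dixon's 95% critical value, which chance gives in about 1 of 20 groups. Of these, 3 were the same library, replicate 5 of the 14-day PH group. It had the lowest *Mag* value (2952, next 6085), the lowest *Cnp* value (7658, next 13830) and the highest *Mobp* value (71330, next 53600) of its group. In the intact PH, replicate 2 had the highest *Mog* value (3635, next 3252). In the 4-month PH, replicate 4 had the lowest *Ugt8a* value (2480, next 3521).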

How the results depend on the processing

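The count of members called was 0 in the 8 comparisons under 64 of 64 settings that changed the covariate, the pairing, the scaling, the pseudocount (100), the filter or the GC slope. The GC slope was chosen after seeing the data. With each library left out in turn the counts ranged from 0 to 1 at 14 days in the POA, where *Fa2h* was called without replicate 1 of the 14-day group, and were 0 in the other 7 comparisons. Estimates of single members kept their direction in 546 of 576 other settings, and none of the 30 that turned was past the threshold. Their cause was not tested. With batch in place of SV1, and alike with no covariate, these were *Ermn* 0.16 at 14 days in the PH, *Mobp* -0.0029 at 4 months in the PH, and, between 4 months and 14 days in the PH, *Mog* 0.015, *Mag* 0.21, *Cnp* 0.19 and *Ermn* -0.14. For the PH against the POA at 14 days, batch gave *Mag* -0.066, *Mobp* 0.032 and *Ermn* 0.11, and no covariate gave *Mag* -0.041, *Mobp* 0.021 and *Ermn* 0.071, and *Cnp* 0.013 at 4 months. SV1 with batch gave *Cnp* 0.0058 for that contrast at 14 days. For *Ermn* at 14 days in the POA, SV1 with batch gave -0.038, median centering -0.0014 and the GC slope -0.018. The GC slope also gave *Ermn* 0.021 at 14 days, and *Mag* -0.013 and *Ugt8a* 0.0093 at 4 months, for the PH against the POA.

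Deviations of libraries with the same number in a region had 30 correlations from -0.31 to 0.395, with 23 over 0.1. They were centered on the group alone and so also hold the batch, and cannot decide whether the numbers are pairs. In the main fits the numbers were not taken as pairs. With the number as a replicate block, 0 members were called in every comparison, and the values that turned were *Mbp* -0.082 at 4 months in the PH, *Ermn* -0.014 at 14 days in the POA, and *Mbp* -0.0049 and *Cnp* 0.0085 for the PH against the POA at 14 days.

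Leaving out single libraries turned 63 of 1485 estimates, of 22 results. These ranged, at 14 days, for *Mbp* in the PH from -0.14 to 0.042, and in the POA for *Ermn* from -0.024 to 0.068 and *Mbp* from -0.10 to 0.0014. At 4 months they ranged in the PH for *Fa2h* from -0.088 to 0.039, *Mbp* from -0.053 to 0.11 and *Mobp* from -0.071 to 0.080, and in the POA for *Cnp* from -0.13 to 0.016 and *Opalin* from -0.16 to 0.017. Between 4 months and 14 days they ranged in the PH for *Mbp* from -0.0099 to 0.16 and *Opalin* from -0.099 to 0.045, and in the POA for *Mag* from -0.034 to 0.047, *Opalin* from -0.024 to 0.10 and *Ugt8a* from -0.080 to 0.064. For the PH against the POA at 14 days they ranged for *Cnp* from -0.099 to 0.038, *Ermn* from -0.10 to 0.0032, *Mbp* from -0.042 to 0.17, *Mobp* from -0.10 to 0.033, *Mog* from -0.038 to 0.081 and *Opalin* from -0.14 to 0.040, and at 4 months for *Mag* from -0.0077 to 0.091, *Mbp* from -0.14 to 0.0038 and *Ugt8a* from -0.084 to 0.058. Without counts, the depth of a library cannot be weighed here.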
